A study of Homo sapiens with 34 samples.

Results

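TBXT, MIXL1, EOMES and EVX1 are transcription factor genes of the primitive streak, and their transcript levels were followed here through all 17 conditions of an RNA-seq study of human pluripotent stem cells. They were chosen by symbol, as 4 of the 37951 genes in the count tables. The rule uses no measured value, but earlier results of these data were known when it was chosen. The cells were of the wild-type human embryonic stem cell line ESI017, with 2 biological replicates per condition and 34 libraries in all. For the first 24 h the cells received 1 of 4 treatments named after coordinates of the streak. DE(a) held activin A at 100 ng/ml with CHIR99021 at 2 µM. APS, for anterior primitive streak, held activin A at 30 ng/ml, bFGF at 20 ng/ml and CHIR99021 at 4 µM. MPS, for mid primitive streak, held activin A at 30 ng/ml, bFGF at 20 ng/ml, BMP4 at 40 ng/ml and CHIR99021 at 6 µM. PPS, for posterior primitive streak, was the MPS mixture without activin A. Cells were collected at 24 h, or were moved for the next 24 h into 1 of 3 media, and every day 1 treatment was combined with every medium. DE(b), for definitive endoderm, held activin A at 100 ng/ml and LDN-193189 at 250 nM. PM, for paraxial mesoderm, held A8301 at 1 µM, bFGF at 20 ng/ml and LDN-193189 at 250 nM. LM, for lateral mesoderm, held A8301 at 1 µM, BMP4 at 30 ng/ml and IWP2 at 4 µM. The control cells stayed in the maintenance medium mTeSR PLUS for 48 h per the labels. The standard routes were DE(a) into DE(b), APS into PM and MPS into LM. The sources differ on whether PM also held CHIR99021, and the labels list none.

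The primitive streak is the band of the embryo where epiblast cells leave the surface layer and become mesoderm or endoderm. WNT, activin/Nodal, BMP and FGF signals switch its genes on, with more activin/Nodal signal at the anterior end and more BMP signal at the posterior end. CHIR99021 inhibits GSK3 and so activates WNT signalling, LDN-193189 inhibits BMP receptors, A8301 inhibits activin/Nodal receptors and IWP2 blocks WNT secretion. TBXT, or brachyury, is a T-box factor needed for posterior mesoderm and notochord. MIXL1 is a paired-type homeobox factor of the streak with a known role in endoderm. EOMES is a T-box factor needed for definitive endoderm and for anterior mesoderm, and it lies downstream of activin/Nodal signalling. EVX1 is a homeobox factor of the posterior streak.

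Libraries held 15522780 to 23439799 estimated counts (median 19341117), and levels are given as CPM, the count scaled to the library total. In the control, the summed level of the pluripotency genes was 1778 to 1825 CPM, against at most 819.5 CPM in any treated library. The defining genes of the labelled fates were present where the labels place them: SOX17 averaged 385 CPM in DE(a)-DE(b), TBX6 averaged 167 CPM in APS-PM and HAND1 averaged 1958 CPM in MPS-LM. They were also found elsewhere, with SOX17 at 82.2 CPM in DE(a)-LM and 38.2 CPM in DE(a)-PM, and TBX6 at 51.0 CPM and HAND1 at 84.7 CPM in PPS-DE(b). SOX17 averaged 168 CPM in PPS-DE(b), with 113 and 224 CPM in replicates 1 and 2. FOXA2, a further endoderm gene, averaged 105.5 CPM in the standard DE(b) route but 6.58 CPM in PPS-DE(b) (2.17 and 11.0 CPM). The neural genes PAX6 and SOX1 stayed below 1 CPM in every library. A summed amnion list (TFAP2A, GATA3, TFAP2C, ISL1, GABRP, VTCN1) ranged from 81.1 to 475 CPM in LM, against 5.46 to 37.4 CPM in PM and DE(b) together and 12.1 to 175 CPM at 24 h. Its member TFAP2A averaged 55.0 CPM in PPS-24h (37.4 and 72.5 CPM) against 7.45 CPM in MPS-24h and 0.908 CPM in APS-24h. GATA3, also in the list, was closer between PPS-24h and MPS-24h, averaging 54.0, 35.0 and 1.99 CPM in the same order. The part of these genes in the LM and PPS results was not tested. RNA came from whole cultures, so fewer expressing cells and less RNA per cell cannot be told apart.

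The 4 genes lie on different chromosomes of GRCh38 (GENCODE 44). TBXT is at chr6:166157656-166168700 on the minus strand, MIXL1 at chr1:226223618-226227060 on the plus strand, EOMES at chr3:27715949-27722711 on the minus strand and EVX1 at chr7:27242700-27250493 on the plus strand. The 250 bases before the start site of each reference transcript (RefSeq, GRCh38.p14) are shown because WNT activation is common to all day 1 treatments and 2 of the 4 genes hold a TCF/LEF letter string close to their start. Capitals mark CTTTGA or CTTTGT, the core letters bound by TCF/LEF factors, and CACACC, the core letters of a T-box element, on either strand. These windows end at the base before the start site and are given in the direction of transcription:
TBXT, chr6:166167852-166168101, minus strand: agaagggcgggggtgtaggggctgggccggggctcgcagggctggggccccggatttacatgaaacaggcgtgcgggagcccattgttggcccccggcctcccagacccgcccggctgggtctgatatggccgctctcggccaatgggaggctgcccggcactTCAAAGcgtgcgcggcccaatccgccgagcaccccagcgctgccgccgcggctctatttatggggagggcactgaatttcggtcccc
MIXL1, chr1:226223414-226223663, plus strand: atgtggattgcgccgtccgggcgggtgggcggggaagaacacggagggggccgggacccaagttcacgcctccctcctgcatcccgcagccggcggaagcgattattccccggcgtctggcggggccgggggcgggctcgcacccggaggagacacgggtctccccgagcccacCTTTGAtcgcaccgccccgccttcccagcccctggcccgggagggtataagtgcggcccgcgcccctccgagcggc
EOMES, chr3:27722324-27722573, minus strand: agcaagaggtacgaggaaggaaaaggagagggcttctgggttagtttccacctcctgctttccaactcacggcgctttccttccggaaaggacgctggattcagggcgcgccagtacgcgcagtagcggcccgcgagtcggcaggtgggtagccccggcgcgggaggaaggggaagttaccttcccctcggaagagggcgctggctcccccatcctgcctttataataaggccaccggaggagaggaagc
EVX1, chr7:27242552-27242801, plus strand: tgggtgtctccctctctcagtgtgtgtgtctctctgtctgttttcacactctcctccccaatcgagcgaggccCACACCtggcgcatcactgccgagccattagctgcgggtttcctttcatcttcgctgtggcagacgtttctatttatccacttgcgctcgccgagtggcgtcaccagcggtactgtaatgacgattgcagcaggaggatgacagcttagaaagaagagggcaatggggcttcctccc
The MIXL1 window held CTTTGA from position -76, and the TBXT window held the same letters on the opposite strand, as TCAAAG, from position -87. A further RefSeq start site of TBXT, at base 166168655, has a window (chr6:166168656-166168905, not shown) with none of these letters. The EVX1 window held CACACC from position -177. The EOMES window held none of these strings, which says only that the letters are not in this window. Of 35116 windows of the same kind over all genes, 11.2% held CTTTGA, 13.7% held CTTTGT and 14.2% held CACACC, so each match is a description and not a binding site.

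All 4 genes were low in the control and high after the first day under every treatment. EVX1 had 0 counts in both control libraries, which allows up to 3 counts in each. TBXT had 1 and 2 counts, EOMES had 7 and 5, and MIXL1 had 27 and 28. At 24 h the libraries ranged from 259 to 1152 CPM for TBXT, from 521 to 1796 CPM for MIXL1, from 12.2 to 666 CPM for EOMES and from 144 to 459 CPM for EVX1. The control and the 24 h libraries did not overlap for any of the 4. In edgeR's quasi-likelihood test with Benjamini-Hochberg adjustment over the 17895 genes tested, 16 of 16 such comparisons were called higher at an adjusted p under 0.05. The shares of all genes called higher were 10.3% in DE(a), 13.6% in APS, 16.5% in MPS and 16.4% in PPS. The weakest was EOMES in PPS-24h (log2 fold change 6.19, SE 0.91, edgeR adjusted p = 1.74e-05). MIXL1 rose by 8.91 (SE 0.59) in PPS-24h and by 10.42 (SE 0.62) in APS-24h on the log2 scale. For EVX1 the fold was at least 1009 in DE(a)-24h and at least 2609 in PPS-24h, taking 3 counts per control library. For TBXT, from 3 control counts in all, the ratio was 3797 in DE(a)-24h (95% counting interval 1299 to 18420) and 14720 in PPS-24h (5037 to 71390). These comparisons share the same 2 control libraries, and their intervals cover counting error only.

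**Figure D1:**
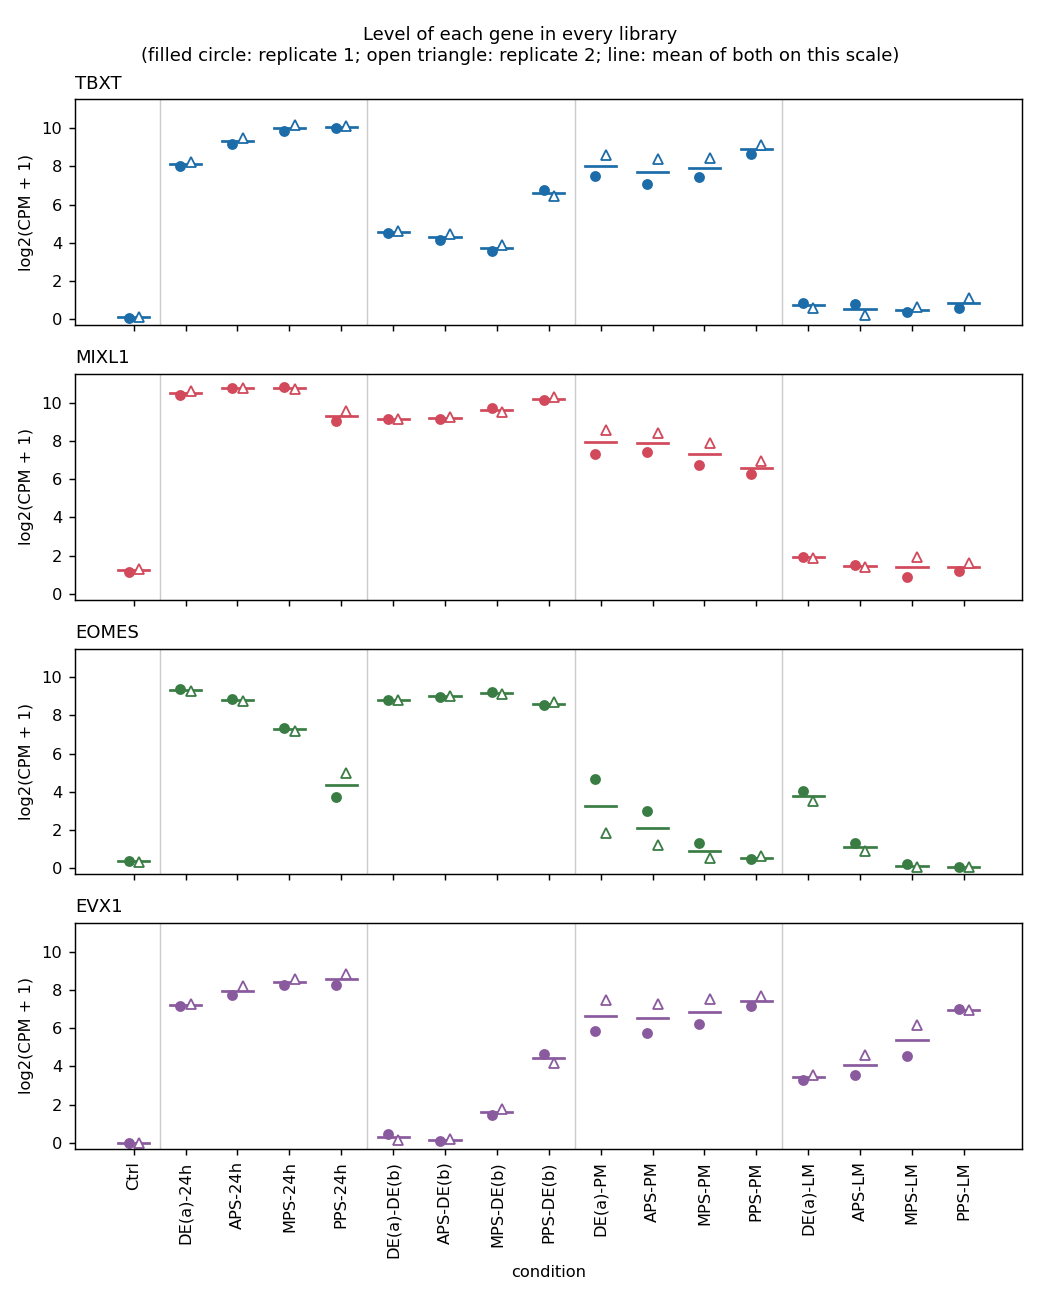
Level of TBXT, MIXL1, EOMES and EVX1 in each of the 34 libraries, as log2(CPM + 1) (y axis), by condition (x axis); filled circles are replicate 1, open triangles replicate 2 and lines the mean of both on this scale. All 4 genes are low in the control and high at 24 h, EOMES and MIXL1 are high in DE(b), TBXT, MIXL1 and EVX1 are high in PM, and of the 4 only EVX1 stays above 3 in all LM libraries.

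After the first day, TBXT was lowest in DE(a) and highest in MPS and PPS. Its levels in replicates 1 and 2 were 259 and 298 CPM in DE(a)-24h, 571 and 716 CPM in APS-24h, 920.4 and 1152 CPM in MPS-24h, and 1041 and 1125 CPM in PPS-24h. The DE(a), APS and MPS ranges were separate, and the PPS range lay within that of MPS. TBXT was higher than in DE(a)-24h by 1.89 in MPS-24h (SE 0.40, edgeR adjusted p = 0.00302) and by 1.88 in PPS-24h (SE 0.40, edgeR adjusted p = 0.0017) on the log2 scale. Without replicate 1 of DE(a)-24h, the adjusted p for MPS was 0.0525. The difference of APS from DE(a) was 1.19 (SE 0.39) and missed the threshold (edgeR adjusted p = 0.314). It passed in a fit without the PM libraries, whose replicates were the most spread for these genes (adjusted p = 0.0205). That fit was added after seeing the data, and of 148 comparisons it gained 14 calls and lost 0. Passing it is therefore not independent support, here or below. Between PPS-24h and MPS-24h, which differ in activin A alone, the fitted difference was -0.01 (SE 0.39, edgeR adjusted p = 1).

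MIXL1 followed another order, with PPS apart from the other 3 treatments. It measured 1368 and 1549 CPM in DE(a)-24h, 1745 and 1755 CPM in APS-24h, 1796 and 1658 CPM in MPS-24h, and 521 and 763 CPM in PPS-24h. No PPS library reached the level of any other 24 h library. On the log2 scale MIXL1 in PPS-24h differed by -1.50 from MPS-24h (SE 0.41, edgeR adjusted p = 0.0273), by -1.51 from APS-24h (SE 0.41, edgeR adjusted p = 0.0137) and by -1.26 from DE(a)-24h (SE 0.40, edgeR adjusted p = 0.0294). Among DE(a), APS and MPS the fitted differences were at most 0.25 in size and none was called. The calls rested on both replicates, since leaving out any of the 4 libraries compared raised the adjusted p to 0.0649 to 0.179 against MPS and to 0.0556 to 0.169 against DE(a). Against APS it rose to 0.058 without replicate 1 of APS-24h and to 0.115 without replicate 1 of PPS-24h.

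EOMES ran opposite to TBXT along the treatments. Its levels were 666 and 631 CPM in DE(a)-24h, 465 and 429.9 CPM in APS-24h, 163 and 145 CPM in MPS-24h, and 12.2 and 31.0 CPM in PPS-24h. Each step was lower than the last and no neighbouring ranges overlapped. On the log2 scale EOMES in PPS-24h fell by 4.99 relative to DE(a)-24h (SE 0.66, edgeR adjusted p = 1.01e-05), by 4.44 relative to APS-24h (SE 0.65, edgeR adjusted p = 4.65e-05) and by 2.91 relative to MPS-24h (SE 0.61, edgeR adjusted p = 0.00488). Without replicate 1 of PPS-24h, the lower of the 2 PPS libraries, the last difference was -2.39 and its adjusted p 0.0538. MPS-24h was below DE(a)-24h by 2.07 (SE 0.58, edgeR adjusted p = 0.0238), and leaving out any of the 4 libraries raised that adjusted p to 0.0663 to 0.169. The APS to MPS step, where BMP4 is added and CHIR99021 is raised, was -1.52 (SE 0.57) and not called (edgeR adjusted p = 0.213). It was called in the fit without the PM libraries (adjusted p = 0.00248) and with only the libraries compared (0.021).

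The levels of EVX1 were ordered as those of TBXT, with no called difference in the fit over all libraries. It measured 144 and 154 CPM in DE(a)-24h, 212 and 294 CPM in APS-24h, 306 and 380.1 CPM in MPS-24h, and 311 and 459 CPM in PPS-24h. The DE(a) libraries were below all others, and the MPS and PPS ranges overlapped. No pair of treatments was called for EVX1 in the fit over all libraries. The widest difference, PPS-24h over DE(a)-24h, was 1.30 on the log2 scale (SE 0.57, edgeR adjusted p = 0.113). It passed in the fit without the PM libraries (adjusted p = 0.0334) and with only the libraries compared (0.00235). MPS-24h over DE(a)-24h (edgeR adjusted p = 0.229) also passed with only the libraries compared (0.00423). Across the 6 pairs of treatments, 9 of 24 member comparisons passed. Of all genes tested, the share called in either direction was 0.732% for APS against DE(a), where none of the 4 was called, 8.97% for MPS against DE(a), 20.9% for PPS against DE(a), 2.93% for MPS against APS, 14.6% for PPS against APS and 6.14% for PPS against MPS.

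**Figure D2:**
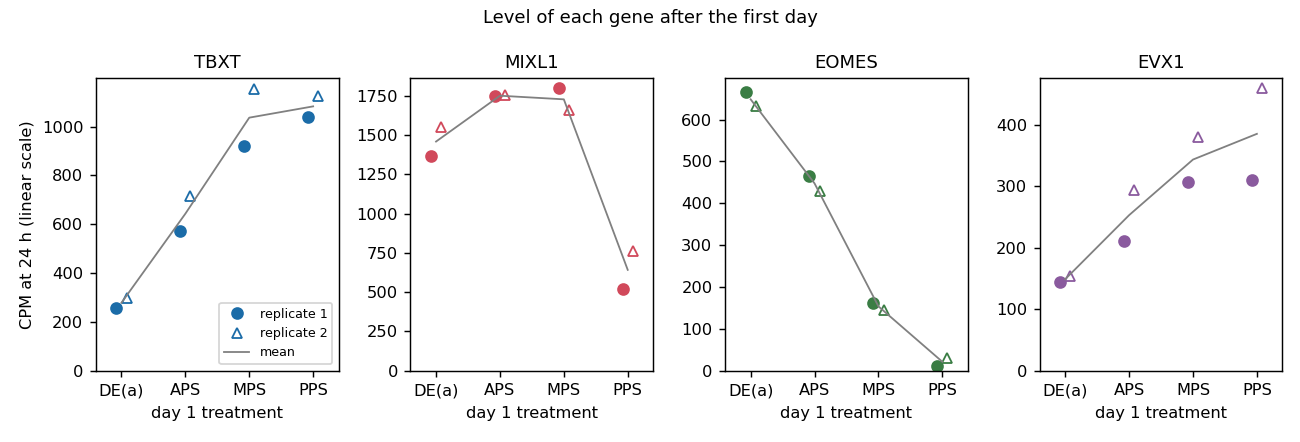
Level at 24 h in CPM on a linear scale (y axis) after each day 1 treatment (x axis), 1 panel per gene; symbols are the 2 replicates and the grey line joins their means. The means of TBXT and EVX1 are higher at each step from DE(a) to PPS, EOMES is lower at each step, from 666 and 631 CPM to 12.2 and 31.0 CPM, and MIXL1 is lowest in PPS.

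Per kb of reference transcript, which allows levels to be compared between genes, MIXL1 led in DE(a)-24h at 742 CPM per kb, followed by EOMES at 199, TBXT at 125 and EVX1 at 52.1. In PPS-24h TBXT led at 485.5 CPM per kb, followed by MIXL1 at 327, EVX1 at 135 and EOMES at 6.63. The order of TBXT and EOMES was thus exchanged between the ends of the treatment series, as was that of EOMES and EVX1.

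Other genes of the streak were counted beside them, in lists chosen for their known roles, with earlier results of these data known. Among 17 genes for streak signals and their antagonists, 16 were tested. Of these, 14 rose and 0 fell in DE(a)-24h against the control, 12 and 0 in APS-24h, 11 and 4 in MPS-24h, and 9 and 4 in PPS-24h. The shares of all genes called higher were 10.3, 13.6, 16.5 and 16.4% in the same order. The share called lower is not given, so no background stands beside the falls. The median log2 fold change of the list was between 4.12 and 5.04, beside a median over all genes of at most 0.03. DKK1, a secreted WNT antagonist, rose from 0.201 CPM in the control to 339 CPM in DE(a)-24h and to 1162 CPM in MPS-24h. Between PPS-24h and MPS-24h, where 6.14% of all genes were called in either direction, 7 of the 16 fell and 1 rose. They included CER1, a secreted Nodal and BMP antagonist, which was at 103 CPM in MPS-24h and 0.173 CPM in PPS-24h, and LEFTY1, a Nodal antagonist, at 2.22 and 0.0602 CPM. Among 21 other transcription factors of the streak and early mesendoderm, 19 were tested. Against the control, 11, 12, 13 and 13 rose in DE(a), APS, MPS and PPS, and 0, 0, 1 and 3 fell. The same shares of all genes stand beside these rises, and none beside the falls. GSC, an organizer homeobox gene, was at 28.3 CPM in MPS-24h and 0.499 CPM in PPS-24h (log2 fold change -5.91, edgeR adjusted p = 4.5e-08). CDX4, a posterior homeobox gene, went the other way, from 4.32 to 48.9 CPM.

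On the second day in DE(b), TBXT and EVX1 fell, EOMES ended in a narrow range from unlike 24 h levels, and the change of MIXL1 depended on the day 1 treatment. TBXT measured 22.2 and 23.8 CPM for the DE(a) start, 16.6 and 21.3 CPM for APS, 11.1 and 13.7 CPM for MPS, and 108 and 85.6 CPM for PPS. The PPS libraries were above all others in this medium. Against its own 24 h population the log2 fold change of TBXT was -3.67, -5.13, -6.46 and -3.44 for DE(a), APS, MPS and PPS (SE 0.43 to 0.50, all called). EVX1 had 8 and 2 counts in DE(a)-DE(b) and 1 and 3 counts in APS-DE(b), so it was close to undetected there. In MPS-DE(b) it was at 1.75 and 2.38 CPM, and in PPS-DE(b) at 24.1 and 17.3 CPM. The APS, MPS and PPS ranges were separate and in that order, and the DE(a) range overlapped that of APS. EVX1 was 558-fold lower than at 24 h after DE(a) (95% counting interval 303 to 1164) and 2434-fold lower after APS (950.3 to 8934). After PPS it fell by 4.17 on the log2 scale (SE 0.64, edgeR adjusted p = 6.23e-05).

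For cells started in DE(a), EOMES in DE(b) was at 439.8 and 443 CPM. The APS start gave 507 and 520.2 CPM, the MPS start 606 and 562 CPM and the PPS start 368 and 412 CPM. The 4 ranges did not overlap, and they spanned 368 to 606 CPM where the 24 h levels had spanned 12.2 to 666 CPM. EOMES rose on the second day by 4.22 after PPS (SE 0.64, edgeR adjusted p = 4.4e-05) and by 1.85 after MPS (SE 0.57, edgeR adjusted p = 0.0184) on the log2 scale. The MPS call was lost on leaving out any of the 4 libraries (adjusted p 0.0506 to 0.107). After APS and DE(a) the differences were 0.15 (SE 0.55) and -0.63 (SE 0.56) and neither was called. MIXL1 measured 559 and 565 CPM for the DE(a) start, 571 and 611 CPM for APS, 839.9 and 727 CPM for MPS, and 1129.8 and 1241 CPM for PPS. The values of PPS-DE(b) exceeded every other MIXL1 value at 48 h. MIXL1 fell from its 24 h level after DE(a), APS and MPS (log2 fold change -1.45, -1.61 and -1.21, edgeR adjusted p 0.00425 to 0.0279). The call after DE(a) was lost without either replicate of DE(a)-DE(b) or replicate 2 of DE(a)-24h (adjusted p 0.0505 to 0.0666), and that after MPS without any of its 4 libraries (0.0698 to 0.159). After PPS the difference was 0.93 (SE 0.40, edgeR adjusted p = 0.108). It passed in the fit without the PM libraries (adjusted p = 0.0144) and with only the libraries compared (0.0344). In all, 11 of 16 comparisons in DE(b) were called lower and 2 higher. The background over all genes was 13.5, 15.8, 14.3 and 10.2% called lower for the same order of treatments, and 14.5, 14.8, 13.6 and 10.4% called higher.

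In PM, TBXT, MIXL1 and EVX1 stayed far above the control. EOMES and MIXL1 were called lower than at 24 h after all 4 treatments, TBXT after 3 and EVX1 after 0. TBXT measured 180.5 and 380.0 CPM for the DE(a) start, 133 and 336 CPM for APS, 170.4 and 350.2 CPM for MPS, and 402 and 557 CPM for PPS. EVX1 measured 56.7 and 176 CPM, 53.0 and 153 CPM, 73.4 and 184 CPM, and 141 and 203 CPM in the same order. Replicate 2 was the higher for both genes in 4 of 4 conditions, and the ranges of the conditions overlapped, except that PPS-PM stood above the others for TBXT. TBXT fell from 24 h after APS, MPS and PPS (log2 fold change -1.56, -2.09 and -1.20, edgeR adjusted p = 0.00563, 0.000585 and 0.0333). The APS call was lost without replicate 1 of APS-PM (adjusted p = 0.107), and the PPS call on leaving out any of the 4 libraries (adjusted p 0.0647 to 0.202). The PPS call was also lost with DESeq2 (adjusted p = 0.0511), and the APS call with only the libraries compared (0.0617). After DE(a) the fitted difference was -0.11 (SE 0.39) while the means in CPM were 279 and 280.3, so no direction can be given. No comparison of EVX1 in PM with 24 h was called, with differences of -0.47, -1.40, -1.51 and -1.19 (SE 0.56 to 0.57, edgeR adjusted p 0.0624 to 0.606). Whether the fall in PM differed between TBXT and EVX1 was not tested. The APS and MPS differences were called without replicate 2 of APS-PM (-2.36, adjusted p = 0.0285) and of MPS-PM (-2.36, adjusted p = 0.0356), and that of PPS with only the libraries compared (adjusted p = 0.0499).

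EOMES in PM measured 24.4 and 2.64 CPM for the DE(a) start, 6.93 and 1.32 CPM for APS, 1.51 and 0.446 CPM for MPS, and 0.389 and 0.571 CPM for PPS. Here replicate 1 was the higher in 3 of 4 conditions. EOMES fell from its own 24 h level in all 4 (log2 fold change -5.51 to -7.44, edgeR adjusted p at most 5.51e-05). MIXL1 measured 156 and 379 CPM, 172 and 336 CPM, 108 and 239 CPM, and 75.9 and 122 CPM after DE(a), APS, MPS and PPS, with replicate 2 again the higher in 4 of 4. MIXL1 also fell in all 4 (log2 fold change -2.57 to -3.42, edgeR adjusted p at most 0.000108). In PM 11 of 16 comparisons with 24 h were called lower and 0 higher. Among all genes tested, 11.4, 13.2, 12.6 and 11.0% were called lower for the same order of treatments.

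In LM, TBXT and MIXL1 fell to at most 1.20 and 2.84 CPM, while EOMES and EVX1 differed with the day 1 treatment, in opposite orders. TBXT was at 0.161 to 1.20 CPM and MIXL1 at 0.814 to 2.84 CPM over the 8 LM libraries, where the counts were 3 to 22 for TBXT. Both genes were high at 24 h in all 4 populations, and in LM the TBXT ranges of the 4 day 1 treatments overlapped, while MIXL1 in DE(a)-LM (2.84 and 2.67 CPM) lay above APS-LM (1.89 and 1.66 CPM) and PPS-LM (1.31 and 2.02 CPM). EOMES was at 15.7 and 10.4 CPM in DE(a)-LM and at 1.55 and 0.912 CPM in APS-LM. It had 3 and 1 counts in MPS-LM and 1 and 1 in PPS-LM, at or under the limit that a count of 0 allows. EVX1 ran the opposite way, at 8.92 and 10.9 CPM in DE(a)-LM, 10.7 and 23.6 CPM in APS-LM, 22.5 and 71.7 CPM in MPS-LM, and 126 and 122 CPM in PPS-LM. The PPS libraries were above all other LM libraries, and neighbouring ranges among DE(a), APS and MPS overlapped. From 24 h to LM, 16 of 16 comparisons were called lower. The corresponding shares of all genes were 15.2, 18.9, 16.9 and 12.9%. The log2 fold changes were -8.83 to -11.18 for TBXT and -8.54 to -9.98 for MIXL1. For EVX1 they were -4.02, -3.91, -2.85 and -1.59 for DE(a), APS, MPS and PPS. The last of these (SE 0.57, edgeR adjusted p = 0.0469) was lost on leaving out any of the 4 libraries (adjusted p 0.0536 to 0.216) and with DESeq2 (adjusted p = 0.0553).

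**Figure D3:**
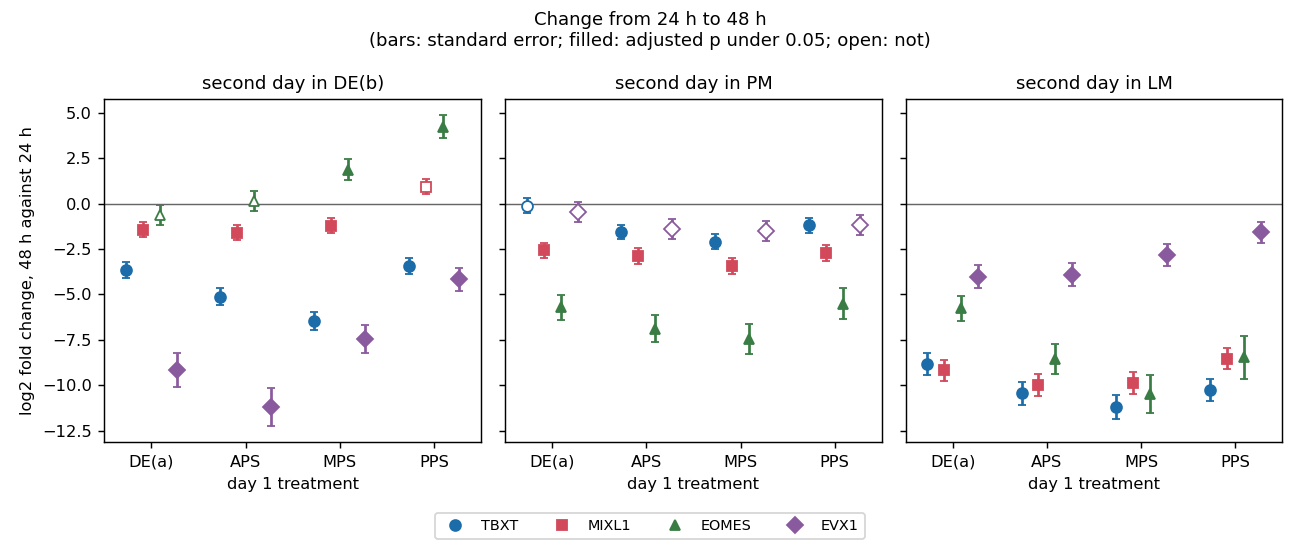
Fitted log2 fold change from 24 h to 48 h (y axis) for each day 1 treatment (x axis), 1 panel per day 2 medium; bars are standard errors, filled symbols have an edgeR adjusted p under 0.05 and open symbols do not. In DE(b) EOMES changes by 4.22 after PPS while EVX1 changes by -4.17, in PM EOMES has the most negative changes, and in LM EVX1 the least negative; for EVX1 in DE(b) and EOMES in LM some conditions hold 1 to 8 counts a library, where the fitted value depends on the prior count.

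Set against the control at 48 h, the genes that remained high depended on the medium. In DE(b) 14 of 16 comparisons were called higher, the exceptions being EVX1 after DE(a) and after APS. In PM 14 of 16 were called higher, the exceptions being EOMES after MPS (log2 fold change 1.67, SE 1.26) and after PPS (0.68, SE 1.37). In LM 6 of 16 were called higher: EVX1 after all 4 treatments, EOMES after DE(a) and TBXT after PPS. Of all genes tested, the shares called higher after DE(a), APS, MPS and PPS were 18.7, 19.9, 20.0 and 18.9% in DE(b), 17.1, 18.4, 18.6 and 20.9% in PM, and 19.4, 22.9, 21.2 and 21.5% in LM. The EVX1 fold in LM was at least 67.2, 117, 319 and 841 for DE(a), APS, MPS and PPS. The 32 TBXT counts of PPS-LM gave a ratio of 11.7 to the control (95% counting interval 3.66 to 59.7). Its call (edgeR adjusted p = 0.0193) was lost without either control library or without replicate 2 of PPS-LM (adjusted p 0.0571 to 0.166). EOMES after APS in PM was called (edgeR adjusted p = 0.00512) but not without replicate 1 of APS-PM (adjusted p = 0.183).

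The design also asks how far a population differs from the standard route into the same medium. In DE(b), against DE(a)-DE(b), 2 of 12 comparisons were called, both after PPS. TBXT was higher by 2.11 on the log2 scale (SE 0.41, edgeR adjusted p = 0.000911), and EVX1 was 79.1-fold higher (95% counting interval 42.8 to 166, edgeR adjusted p = 6.37e-05), from 10 counts in the standard route. EOMES in PPS-DE(b) differed from the standard route by -0.14 (SE 0.55, edgeR adjusted p = 0.913). MIXL1 was higher by 1.12 (SE 0.40) and just missed the threshold (edgeR adjusted p = 0.0598), passing in the fit without the PM libraries (adjusted p = 0.00456) and with DESeq2 (adjusted p = 0.0368). Beside these, 0.469% of all genes were called for APS, 5.59% for MPS and 17.4% for PPS.

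In PM, against APS-PM, 1 of 12 comparisons was called: EOMES was 8.34-fold lower in PPS-PM (95% counting interval 5.29 to 13.8, edgeR adjusted p = 0.0491). Beside it, 0.0559% of all genes were called for DE(a), 0.447% for MPS and 5.25% for PPS. That call was lost in several settings, among them leaving out replicate 1 of APS-PM (adjusted p = 0.731, with the log2 difference moving from -3.06 to -1.45), replicate 1 of PPS-PM (0.197) or replicate 2 of PPS-PM (0.191). In LM, against MPS-LM, 2 of 12 were called, both after DE(a), while 14.4, 3.79 and 5.6% of all genes tested were called after DE(a), APS and PPS. EOMES was 121-fold higher in DE(a)-LM (95% counting interval 47.1 to 447, edgeR adjusted p = 0.000167), from 4 counts in MPS-LM. Beside it, the endoderm genes SOX17 and FOXA2 averaged 82.2 and 31.7 CPM in DE(a)-LM against 0 and 0.0949 CPM in MPS-LM, and their part in the difference was not tested. EVX1 was lower by 2.38 on the log2 scale (SE 0.61, edgeR adjusted p = 0.0106). The EVX1 call was lost without replicate 1 of DE(a)-LM (adjusted p = 0.106), replicate 2 of DE(a)-LM (0.0539) or replicate 2 of MPS-LM (0.313), the last of which gave a difference of -1.25.

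**Figure D4:**
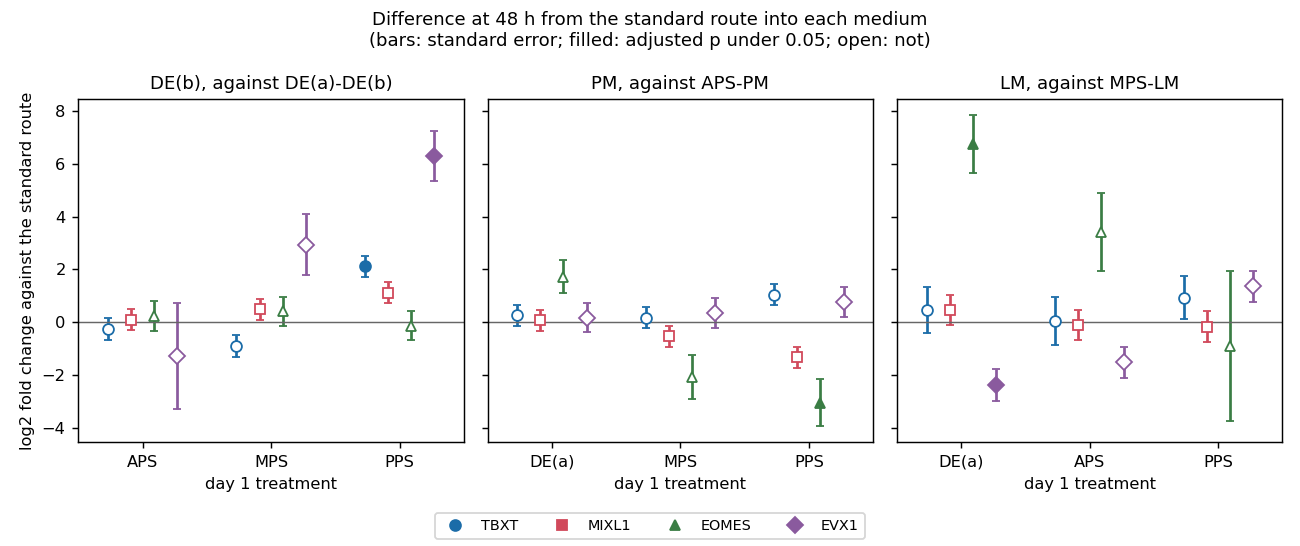
Fitted log2 fold change at 48 h against the standard route into the same medium (y axis) for the other 3 day 1 treatments (x axis), 1 panel per medium; bars are standard errors, filled symbols have an edgeR adjusted p under 0.05 and open symbols do not. EVX1 and TBXT after PPS stand above 0 in DE(b), EOMES after PPS stands below 0 in PM, and in LM EOMES after DE(a) stands above 0 and EVX1 below; fitted values of EVX1 in DE(b) and EOMES in LM rest on 1 to 8 counts in some libraries.

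A test over all 4 day 1 treatments was also run within each medium. In DE(b) TBXT and EVX1 were called (edgeR adjusted p = 2.36e-05 and 7.2e-06), and MIXL1 and EOMES were not (0.137 and 0.905). In PM EOMES was called (edgeR adjusted p = 0.000744), and in LM EOMES and EVX1 were (1.73e-05 and 0.000291). Among all genes tested, the shares called were 16.6% for DE(b), 7.47% for PM and 19.6% for LM. With only the libraries of 1 medium in the fit, EOMES in PM was not called (adjusted p = 0.221), whereas in DE(b) MIXL1 (0.00164) and EOMES (0.0304) both were. MIXL1 in DE(b) was also called in the fit without the PM libraries (adjusted p = 0.00953), and MIXL1 in PM with DESeq2 (adjusted p = 0.0325).

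The effect of the day 1 treatment differed between media for 3 of the 4 genes, by a test of the interaction over the 12 conditions of 48 h in which 13.1% of all genes tested were called. The edgeR adjusted p was 0.00146 for EOMES, 0.00377 for EVX1, 0.0423 for MIXL1 and 0.169 for TBXT. The MIXL1 call was lost on leaving out any 1 of 16 libraries, namely either replicate of the 4 DE(b) conditions, of PPS-PM, DE(a)-LM or APS-LM, replicate 2 of APS-PM or replicate 1 of PPS-LM (adjusted p 0.0517 to 0.155), and with only the 48 h treated libraries in the fit (0.106). The change from 24 h to DE(b) was compared directly between PPS and DE(a). It was more positive after PPS by 4.85 for EOMES (SE 0.83, edgeR adjusted p = 0.000358), by 5.00 for EVX1 (SE 1.15, edgeR adjusted p = 0.0043) and by 2.38 for MIXL1 (SE 0.57, edgeR adjusted p = 0.00525) on the log2 scale. For EOMES this was a rise from a low 24 h level after PPS, and for EVX1 a smaller fall. TBXT gave 0.23 (SE 0.56, edgeR adjusted p = 0.825). Of all genes tested, 9.87% were called in the positive direction. For the change to PM and to LM, 0 of 8 such comparisons were called, beside 7.83 and 13.6% of all genes tested. The nearest was EVX1 in LM, at 2.43 (SE 0.82, edgeR adjusted p = 0.0533), and it passed in the fit without the PM libraries (adjusted p = 0.0124) and with only the libraries compared (0.00161).

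Averaged over the 4 day 1 treatments, all 4 genes differed between media. DE(b) against PM gave 7.78 for EOMES (SE 0.40), 2.06 for MIXL1 (SE 0.21), -3.43 for TBXT (SE 0.22) and -6.86 for EVX1 (SE 0.43) on the log2 scale. LM against PM gave -8.93 for TBXT (SE 0.31), -6.49 for MIXL1 (SE 0.27), -1.95 for EVX1 (SE 0.29) and -1.92 for EOMES (SE 0.68). The replicate ranges of EOMES overlapped between LM and PM after DE(a) and after APS. After MPS and PPS its LM libraries held 1 to 3 counts. LM against DE(b) gave -9.70 for EOMES, -8.55 for MIXL1, -5.50 for TBXT and 4.91 for EVX1. All 12 were called by edgeR, with an adjusted p of at most 0.0264, beside 43.0, 42.0 and 39.6% of all genes tested in the 3 comparisons. The largest of these p, for EOMES in LM against PM, rose to between 0.0553 and 0.105 on leaving out any 1 of 6 libraries, namely replicate 1 of APS-PM, MPS-PM or PPS-LM or replicate 2 of PPS-PM, MPS-LM or PPS-LM. Of the 16 streak signal genes tested, 8 were higher and 6 lower in DE(b) than in PM, and 3 higher and 10 lower in LM than in PM. NODAL, the ligand of the pathway that activin A stands in for, was among those higher in DE(b), by 7.64 on the log2 scale (SE 0.25). Of the 19 other factors tested, 8 were higher and 8 lower in DE(b) than in PM. SOX17, an endoderm factor, was higher in DE(b) by 10.69 (SE 0.84). CDX1 (-7.78) and CDX2 (-8.82), posterior homeobox genes, and MSGN1 (-9.35), a presomitic mesoderm factor, were lower.

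By the mean log2 ratio over the conditions of a medium, the 2 replicates differed more for each of the 4 genes in PM than in the other media or at 24 h. The ratio of replicate 2 to replicate 1 in PM had a median of 2.08 for TBXT, 2.09 for MIXL1, 2.70 for EVX1 and 0.243 for EOMES. At 24 h the corresponding medians were 1.20, 1.07, 1.32 and 0.936. The mean log2 ratio over the PM conditions, with 0.5 CPM added, was 0.98, 1.02, 1.25 and -1.46 for TBXT, MIXL1, EVX1 and EOMES. Among 14647 genes, 2.92, 2.63, 1.49 and 0.997% had as large a difference. Other genes were split in the direction of EOMES, among them the endoderm genes SOX17 and FOXA2. In replicates 1 and 2 of DE(a)-PM, SOX17 was at 72.7 and 3.75 CPM and FOXA2 at 33.0 and 3.37 CPM. SOX17 was at 2.44 and 0.213 CPM in those of APS-PM. The split was not confined to endoderm genes. In DE(a)-PM, SOX2 was at 14.5 and 4.05 CPM, NANOG at 3.92 and 1.13 CPM and HAND1 at 3.21 and 1.46 CPM. TBX6 (145.5 and 168.7 CPM) and MSGN1 (50.5 and 57.3 CPM) were higher in replicate 2 there. In the other PM conditions MSGN1 was higher in replicate 1. It was at 60.8 and 49.7 CPM in APS-PM, 68.8 and 63.5 CPM in MPS-PM, and 96.8 and 80.7 CPM in PPS-PM. TBX6 was higher in replicate 1 in MPS-PM (161.4 and 152.5 CPM) and in replicate 2 in APS-PM and PPS-PM. The part of these genes in the split was not tested. In LM, EVX1 showed the like, with a mean of 0.75 that 2.36% of genes matched. Replicate 2 was the higher for TBXT, MIXL1 and EVX1 together in every PM condition, and the medians over all genes of the absolute difference were 0.20 in PM and 0.19 at 24 h.

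**Figure D5:**
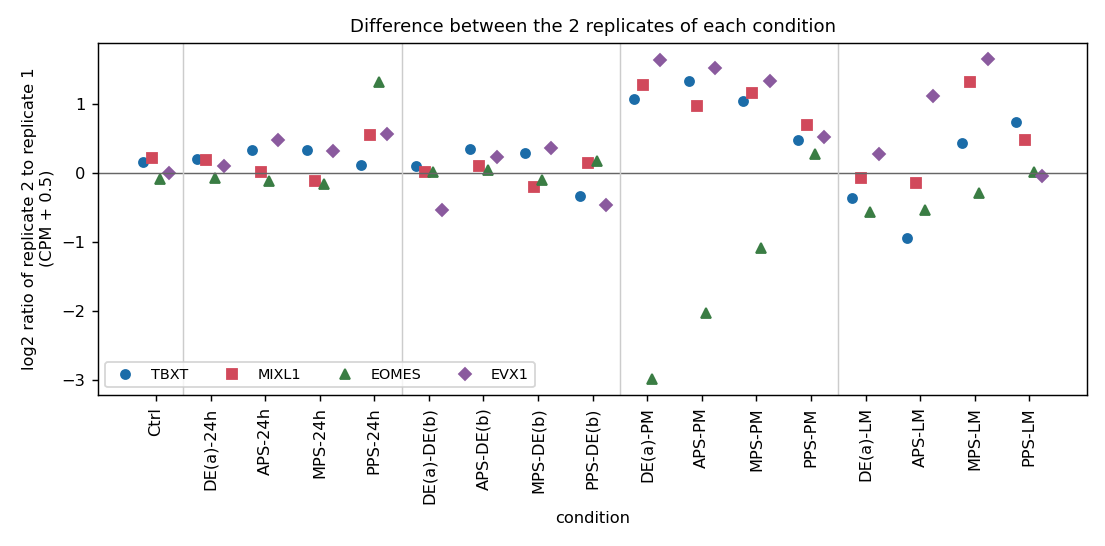
Log2 ratio of replicate 2 to replicate 1, computed on CPM + 0.5 (y axis), for each gene and condition (x axis). In PM the ratios of TBXT, MIXL1 and EVX1 are above 0 in all 4 conditions and those of EOMES are below 0 in 3 of 4.

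Over the 17 condition means, the order of each gene's levels held several neighbours that the replicates did not separate: the ranges overlapped in 7 of 16 neighbouring pairs for TBXT, 10 for MIXL1, 7 for EOMES and 11 for EVX1. TBXT was highest in PPS-24h, MIXL1 in APS-24h, EOMES in DE(a)-24h and EVX1 in PPS-24h. As a description across 17 condition means of log2(CPM + 1), which share the control and the 2 sets of libraries, Pearson's r was 0.832 between TBXT and MIXL1, 0.794 between MIXL1 and EOMES and 0.634 between TBXT and EVX1. It was 0.374 between TBXT and EOMES, 0.221 between MIXL1 and EVX1 and -0.196 between EOMES and EVX1. Over the 12 conditions of 48 h alone the last was -0.821. Both genes had risen from the control on the first day.

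Of the 13774 genes that averaged 1 CPM or more, those whose profile over the 17 conditions was most like a member's were listed by Pearson's r. For TBXT they were SLIT2 (r = 0.947), TNS4 (0.940), FAR1 (0.940), AXIN2 (0.939) and FAM86B1 (0.936). AXIN2, a feedback gene of WNT signalling, averaged 42.5 CPM in the control and 672 CPM in PPS-24h. For MIXL1 they were DKK4 (0.953), KLF7 (0.932), GCNT1 (0.907), RGMB (0.906) and NTN1 (0.904). For EOMES they were PROSER2 (0.972), AC226119.2 (0.962), PIK3CB (0.954), GSC (0.946) and CER1 (0.936), of which GSC and CER1 are anterior streak and endoderm genes. For EVX1 they were TRAM2 (0.951), LRFN5 (0.939), MTSS2 (0.935), LIMA1 (0.928) and NEDD9 (0.917).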

How the data were processed

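Poly(A) RNA from whole cultures was sequenced as strand-marking NEBNext libraries, 2 biological replicates in each of 17 conditions (34 libraries). The authors deposited estimated counts per gene, with replicates 1 and 2 in separate tables. The submitters' processing notes name Salmon 1.10.2, R 4.4.2 and GRCh38, and the annotation release is not given in the sources used here. All 34 count columns matched a labelled sample. The files hold no other unit.

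Estimated counts were rounded. Library totals were 15522780 to 23439799, so 3 counts, the limit that a count of 0 allows, equal 0.128 to 0.193 CPM. Levels are CPM of the library total, mean ± SD where given. Folds against groups with 0 counts use 3 counts per library as a floor, and 95% intervals are exact and cover counting error only. Differences were tested with edgeR 4.0.16 (quasi-likelihood test, TMM factors 0.934 to 1.07, filterByExpr, 17895 of 37951 genes), in 1 fit with a mean for each condition over all libraries (17 residual degrees of freedom), with Benjamini-Hochberg adjustment over all genes tested and a threshold of 0.05. SE is the log2 fold change divided by the square root of F. R 4.3.3 and Python 3.11.15 were used. On data simulated for MPS-24h against APS-24h with 17645 genes, 122 of 200 changed genes were recovered with the correct sign, namely 77% at a log2 change of 2 and 45% at a log2 change of 1, and 6 unchanged genes were called.

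Alternatives were RLE factors, library totals, no filter on low counts, DESeq2 1.42.0, only the libraries compared, a replicate block and each library left out in turn, the last with the filter and dispersion trend of the full fit. The fit without the PM libraries and the comparison of the day 2 change between PPS and DE(a) were added after seeing the data. The replicate numbers were checked for pairing over 136 pairs of conditions. The correlation of same-numbered deviations was -0.0904 to 0.404 (median 0.0879), with 63 over 0.1. On this mixed result the numbers were not taken to pair samples, and the block is given only as an alternative. Replicate 2 was the higher in 14 of 17 conditions for TBXT, 13 for MIXL1, 13 for EVX1 and 6 for EOMES. Named genes were the 4 members, the 5 genes most like each member (Pearson's r of log2(CPM + 1)) and, of each list, at most 4 genes with the largest called change. The members and lists were chosen with earlier results of these data known. Symbols under more than 1 identifier (WNT3, LHX1, GATA4, POU5F1) were left out of the lists. Gene positions are from GENCODE 44 and promoter windows from RefSeq.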

Additional observations from a re-analysis of the deposited data

Results flagged for a closer look

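The effect of the day 1 treatment differed between the 3 day 2 media for 3 of the 4 genes by the interaction term in edgeR over the 12 conditions at 48 h. The adjusted p was 0.00146 for EOMES, 0.00377 for EVX1 and 0.0423 for MIXL1, and 13.1% of all genes tested were called. The MIXL1 call was lost on leaving out any 1 of 16 libraries (adjusted p 0.0517 to 0.155) and with only the libraries compared (0.106).

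The change from 24 h to DE(b) differed between cells that had received PPS and cells that had received DE(a), by a test of that difference in edgeR. After PPS it was more positive by 4.85 for EOMES, by 5.00 for EVX1 and by 2.38 for MIXL1 on the log2 scale. The EVX1 value rests on 8 and 2 counts in DE(a)-DE(b).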

How the results depend on the processing

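Of 212 comparisons of the 4 genes, 136 kept their call under every alternative run and had no value counted as turned in sign. The other 76 include some that were called in no run and only turned in sign. With no filter on low counts, 41 calls were gained and 0 lost, so that 17 comparisons between treatments at 24 h were called where the filtered fit called 9, 16 against the standard route in place of 5, 9 of the tests of the day 1 treatment within a medium in place of 5, and 7 of the changes compared between PPS and DE(a) in place of 3. For EVX1 in MPS-24h against DE(a)-24h, the log2 difference was 1.21 with the filter and 1.20 without. Its edgeR adjusted p was 0.229 with the filter and 1.3e-08 without. Against the standard route, DESeq2 called 9 and the fit without the PM libraries 7. Shares of all genes called were computed for the full fit only, so no background stands beside the counts of any alternative fit. RLE factors changed 0 calls, library totals gained 1 and lost 1, DESeq2 gained 10 and lost 2 over all comparisons, and the fit of only the libraries compared gained 11 and lost 4 of 201.

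With the replicate number as a block, 15 calls were gained and 0 lost, and 10 comparisons against the standard route were called in place of 5. The gained calls included EVX1 in PM against 24 h after APS, MPS and PPS (adjusted p = 0.00781, 0.00505 and 0.0364), MIXL1 for the day 1 treatment within DE(b) and within PM (0.0322 and 0.0201) and the EVX1 change to LM compared between PPS and DE(a) (0.00492). Another was EVX1 in PPS-24h against DE(a)-24h (adjusted p = 0.0275). By the check of their correlations, the replicate numbers were not taken to pair the samples.

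Leaving out 1 library at a time (1168 refits) lost 68 calls, gained 9 and turned 21 values, none of them called in the full fit. The count called between treatments at 24 h ranged from 5, without replicate 1 of PPS-24h, to 9. From 24 h to DE(a)-PM, TBXT ranged from -0.76 to 0.34 and EVX1 from -1.53 to 0.13 on the log2 scale. DE(a)-PM against APS-PM ranged from -0.39 to 1.08 for TBXT, -0.72 to 0.64 for MIXL1, -0.62 to 3.34 for EOMES and -0.88 to 1.14 for EVX1. MPS-PM against APS-PM ranged from -0.48 to 0.99 for TBXT, -1.26 to 0.034 for MIXL1 and -0.51 to 1.31 for EVX1. Against MPS-LM, MIXL1 ranged from -0.15 to 1.68 in DE(a)-LM, -0.72 to 1.104 in APS-LM and -0.78 to 1.05 in PPS-LM, and TBXT from -1.43 to 0.68 in APS-LM. MIXL1 in MPS-LM against the control ranged from -0.68 to 1.16. The difference between PPS and DE(a) in the change to PM ranged from -0.66 to 0.64 for MIXL1 and from -1.32 to 0.34 for EVX1. The cause of these changes was not tested.

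With 2 libraries a condition, the spread was pooled over all conditions, PM included, where these genes varied most. Depth limits EVX1 in DE(b) after DE(a) and APS, EOMES in LM after MPS and PPS, and TBXT and EVX1 in the control.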
